A study of Mus musculus with 6 samples.

Results

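The genes described here are 38 genes of the ATF4 stress response and of transfer RNA charging: 19 stress and amino acid genes and 19 genes for cytosolic aminoacyl-tRNA synthetases. They were chosen by name, from a list drawn up with earlier results of these data known; the rule itself uses no measured difference between the groups. A gene was read from the probe set to which the platform annotation gives its symbol alone and, where it had several such probe sets, from the brightest by mean signal over the 6 arrays. Of the 38 genes, 34 had such a probe set, with 51 probe sets among them. SESN2 and FARSB had no probe set, and MARS1 and QARS1 were matched only by probe sets of several symbols and were not measured. On the whole array 11943 genes had a probe set of 1 symbol. All 34 members were among the 8148 genes that passed the filter on dim signals and were tested.

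The arrays came from a comparison of C2C12 myotubes, 3 arrays, with C2C12 myoblasts, 3 arrays. C2C12 is a mouse muscle cell line: its dividing myoblasts stop cycling and fuse into multinucleated myotubes when serum is lowered. The labels put the myotubes in 2.5% horse serum; the medium of the myoblasts, the time in differentiation medium and whether a group's arrays came from separate cultures are not given in the sources used here, so each p-value reflects array-to-array spread, which may be technical. The labels name no transgene, mutation or drug in either group. Total RNA labelled with biotin was hybridised to HG-U133A arrays, whose probes match human genes, although mouse is the labelled organism. Which species the RNA came from could not be told from the files, and gene names are the human ones of the array. The signal is a linear MAS5 intensity that the authors scaled to about the same mean on each array.

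ATF4 is a transcription factor of the integrated stress response. Kinases that sense unfolded protein in the endoplasmic reticulum, amino acid shortage, viral RNA or lack of heme phosphorylate the initiation factor eIF2, which lowers general protein synthesis while the ATF4 messenger is translated more, so that its control lies largely beyond its RNA level. With partners of the C/EBP family, ATF4 binds composite C/EBP-ATF response elements (CARE) at genes for amino acid uptake, serine and asparagine synthesis and tRNA charging, and it also acts downstream of mTORC1 in growing cells. In muscle the pathway is known from fibre atrophy and from the response to mitochondrial damage.

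Matches to the CARE motif in the mouse promoters of the members are shown because this is the element through which ATF4 is known to act on such genes. In the RefSeq promoter windows of the GRCm38.p6 build, 300 bases from 250 before to 50 after the start site, 29 of the 38 members had an entry. SLC7A5, SLC1A5, CARS1, HARS1, LARS1, NARS1, RARS1, VARS1 and WARS1 had none. The CARE core TGATGNAA, searched on both strands, was found in 7 members: TRIB3, ASNS and the synthetase genes AARS1, GARS1, IARS1, TARS1 and YARS1. Sites are shown for each of the 7, and not every match is listed. Each line gives 28 bases of the gene's own strand, 5′ to 3′, with the match in capitals; most matches are the reverse complement of the core.
Trib3, chr2:152344029-152344056, minus strand: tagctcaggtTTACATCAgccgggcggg
Asns, chr6:7693215-7693242, minus strand: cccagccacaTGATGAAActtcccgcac
Aars, chr8:111033841-111033868, plus strand: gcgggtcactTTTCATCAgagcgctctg
Gars, chr6:55037961-55037988, plus strand: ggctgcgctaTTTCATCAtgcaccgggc
Iars, chr13:49682127-49682154, plus strand: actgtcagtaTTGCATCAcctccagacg
Tars, chr15:11399656-11399683, minus strand: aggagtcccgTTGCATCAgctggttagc
Yars, chr4:129189896-129189923, plus strand: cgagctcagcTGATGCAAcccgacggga

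Among the sites shown, those of Iars and Tars have the same 8 letters, TTGCATCA, and that of Yars has their reverse complement. Counted from the start site, the matches shown began at base 15 in Trib3, -23 in Asns, -30 in Gars, 8 in Iars, -15 in Tars, 4 in Yars and 10 in Aars. Of the members, 5 of the 12 synthetase genes with a window and 2 of the 17 other members held the core, against 4.51% of all 27025 mouse genes with a window (3.97% of 32851 windows). The full cAMP response element TGACGTCA, also searched on both strands, was in none of the 29 members' windows and in 2.03% of all genes. A match describes the letters of these windows and does not show that a factor binds there.

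The arrays did not split by group alone. No label names a laboratory series, and the term is used here for arrays with consecutive laboratory codes in the run records. By these codes the 3 myotube arrays and myoblast array 1 form a first series, and myoblast arrays 2 and 3 a second. Whether the codes mark a shared preparation is not given. Across probe sets Pearson's r was 0.988 between myoblast arrays 2 and 3 and 0.831 to 0.924 in the other pairs, and myotube array 3 correlated with myoblast arrays 2 and 3 (0.92 and 0.924) more closely than with its own group (0.902 and 0.908). The signal of the spike-in controls ran from 12320 to 71439 on the myotube arrays and was 48119, 3539 and 4275 on myoblast arrays 1, 2 and 3. All myotube arrays were of 1 chip lot and 1 scan day and no myoblast array shared either, so lot, day and cell stage cannot be told apart. Results that rest on myoblast array 1 or on the other 2 myoblast arrays are therefore also given with the laboratory series as a block, which compares the myotube arrays with myoblast array 1. Stage markers followed the labels: 6 of 6 tested myotube markers were higher in myotubes, and 5 of 6 tested markers of dividing myoblasts were lower. Marker sums took every listed marker, tested or not. For the 8 myotube markers the sum was 17297 to 18404 in myotubes and 525 to 2605 in myoblasts. For the 8 markers of dividing myoblasts it was 5496 to 6359 in myotubes and 37154 to 38223 in myoblasts. CKM, MYOG and MYF5, defining genes of these lists, did not exceed the control probe sets on any array. Fibroblast markers were higher in myotubes too, 8 of 10 tested, with sums of 321002 to 427704 in myotubes and 99742 to 190981 in myoblasts, of which myoblast array 1 had the highest. Of 5 tested markers of endothelial cells, macrophages or adipocytes 0 passed the limma threshold (PECAM1 and ITGAM had an unadjusted p below 0.05), and CDH5, KDR, CLDN5, CD14, PTPRC, ADIPOQ, PLIN1 and LEP did not exceed the controls on any array. The part of these markers in the member results was not tested. In bulk RNA, fewer cells of a type and less RNA per cell cannot be told apart.

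Of the 34 tested members, 9 were higher in myotubes, 2 were lower and 23 did not pass the test (limma, adjusted p below 0.05 over all 8148 genes). Across all tested genes 12.8% were called, 5.81% higher and 7.02% lower. By class, 7 of the 18 stress and amino acid members were higher and none lower, with a median log2 difference of 0.45, while 2 of the 16 synthetases were higher and 2 lower, with a median of 0.03. The median over all tested genes was 0.12. Signals of the groups did not overlap for 18 of the 34 members, 10 of the 11 called ones among them, against 34.9% of all tested genes. All 204 values of the 34 members exceeded the highest unspiked control of their own array. Differences are on the scale log2(signal + 197), myotube minus myoblast, with the SE after ± and n = 3 arrays in each group, and folds are taken from that scale. With a block for laboratory series 2 members were past the threshold, TRIB3 and ATF5, where 3.01% of all tested genes were. In the first laboratory series alone 1 member was, TRIB3, where 1.5% of all tested genes were.

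**Figure D1:**
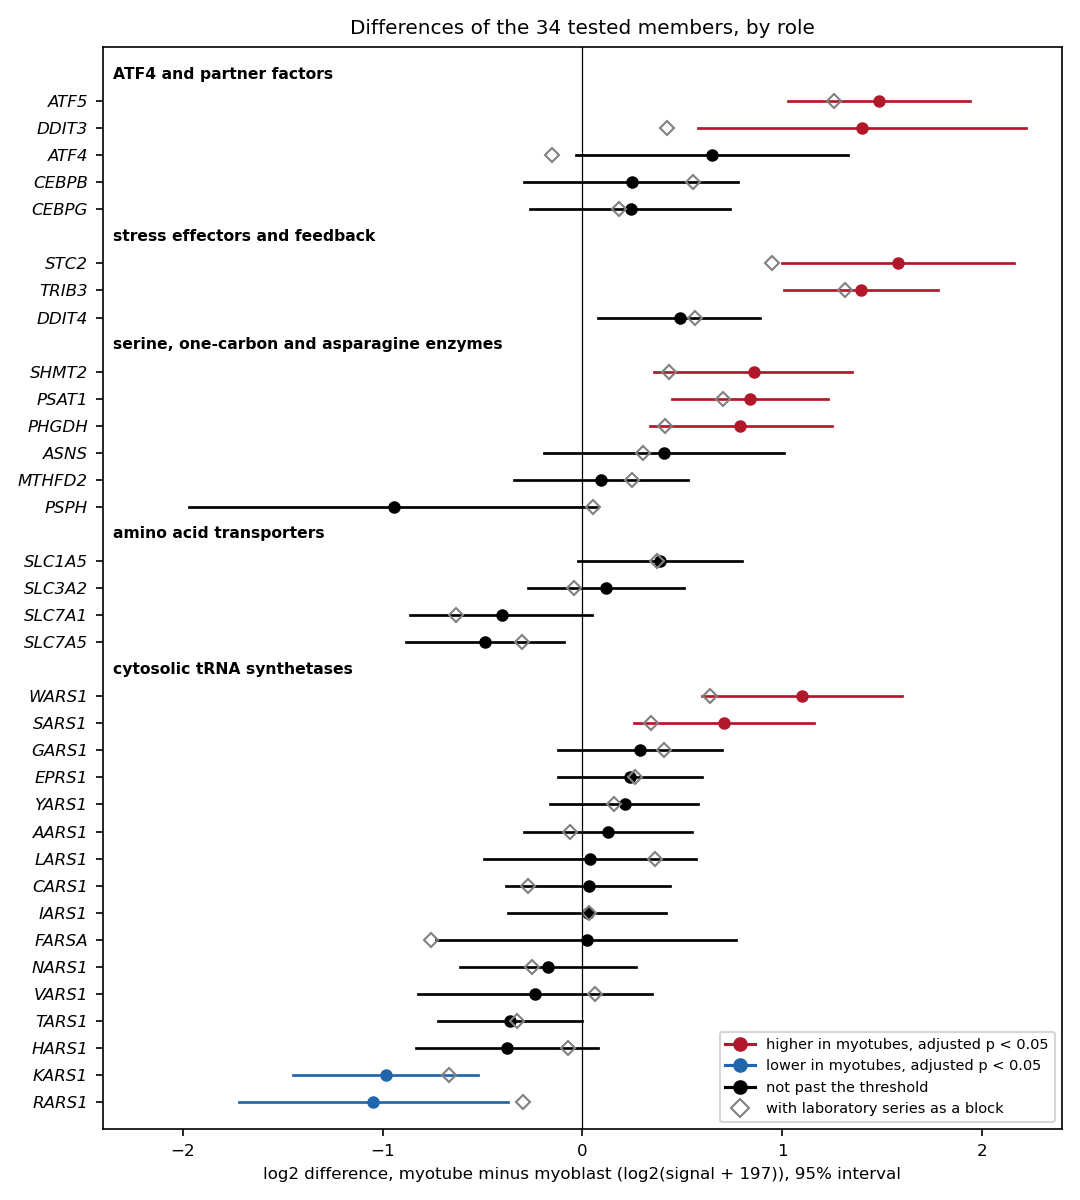
Log2 difference, myotube minus myoblast, of the 34 tested members by role, with the 95% interval of the limma fit on all 6 arrays (3 per group) and, as open diamonds, the estimate with the laboratory series as a block. Stress and amino acid members lie mostly to the right of 0 (median 0.45) and the synthetases on both sides of it (median 0.03), and the diamonds of all 11 called members lie nearer to 0 than their points.

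Among ATF4 and its partner factors, ATF5 and DDIT3 were higher in myotubes, and ATF4, CEBPB and CEBPG did not pass the test. ATF4 itself had signals of 24049, 23704 and 20168 on myotube arrays 1, 2 and 3, and 25073, 10900 and 10665 on myoblast arrays 1, 2 and 3. Myoblast array 1 was the brightest of all 6 arrays and the other 2 myoblast arrays the dimmest, so the groups overlapped. The difference was 0.65 ± 0.31 (95% interval -0.03 to 1.33, limma adjusted p = 0.172). Without myoblast array 1 it was 1.05 and past the threshold (limma adjusted p = 0.00269), and a block for laboratory series turned it to -0.15 (limma adjusted p = 0.755).

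ATF5 is a transcription factor related to ATF4 whose messenger is also translated more when eIF2 is phosphorylated. Its signals were 3715, 3956 and 3757 on the myotube arrays, and 1475, 1107 and 1145 on the myoblast arrays. The 3 myotube arrays were close to each other and all far above the 3 myoblast arrays. ATF5 rose by 1.49 ± 0.20, or 2.80-fold (limma adjusted p = 0.00197), kept its call whichever array was left out (adjusted p up to 0.0178), and also rose in the series block, by 1.26 (limma adjusted p = 0.0322). In the first laboratory series alone, where the spread of the single myoblast array is taken from the myotubes, the adjusted p was 0.0865. Its other probe set past the filter gave 1.15 ± 0.29 (limma adjusted p over probe sets = 0.0294).

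DDIT3, also called CHOP, is a C/EBP-family partner of ATF4 known for promoting death under lasting stress. It had signals of 6923, 4604 and 4401 on the myotube arrays, and 3818, 1194 and 1342 on the myoblast arrays. No myoblast array reached a myotube array, but myoblast array 1 lay just under the lowest myotube array and far above the other 2 myoblast arrays. DDIT3 rose by 1.40 ± 0.37, or 2.63-fold (limma adjusted p = 0.034). The call was lost when any array other than myoblast array 1 was left out (adjusted p up to 0.146). The series block gave a difference of 0.43 (limma adjusted p = 0.523).

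CEBPB, a C/EBP factor that pairs with ATF4, had signals of 7695, 9853 and 14146 in myotubes and 6904, 9598 and 9616 in myoblasts, which overlapped (0.25 ± 0.24, limma adjusted p = 0.496). CEBPG, a short partner that forms dimers with ATF4, had 1498, 1780 and 1614 in myotubes and 1411, 1380 and 1252 in myoblasts. These groups did not overlap, but the difference was small beside its error, 0.24 ± 0.23 (limma adjusted p = 0.476).

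**Figure D2:**
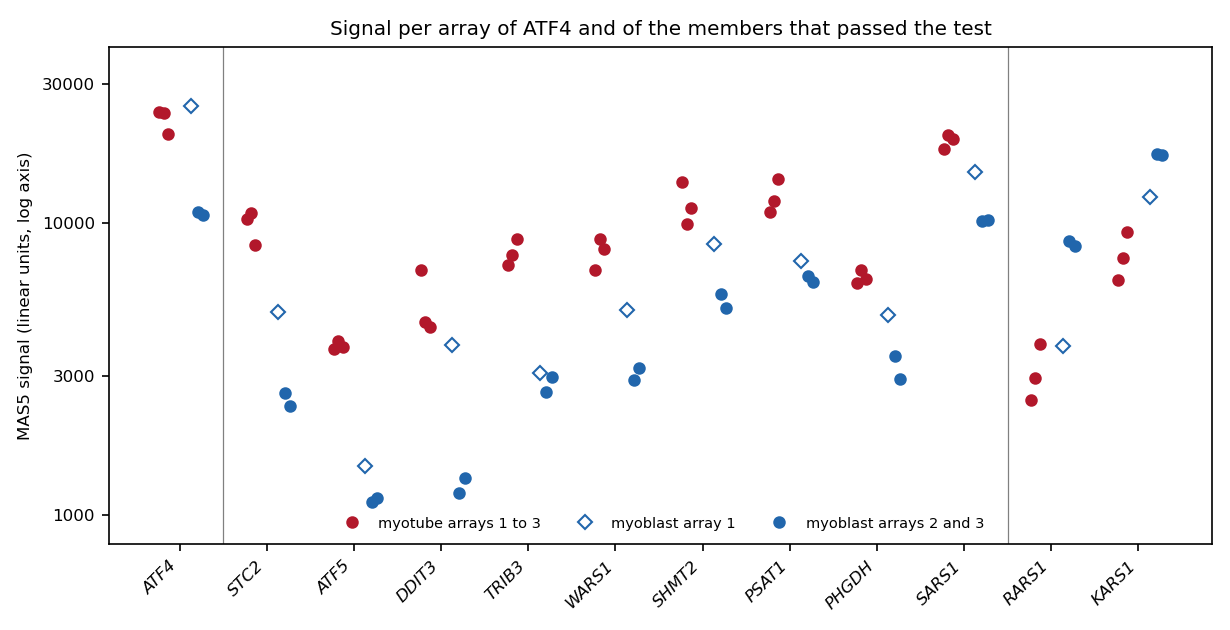
MAS5 signal per array, on a log axis, of ATF4 and the 11 called members (9 higher and, at the right, 2 lower in myotubes); red points are the 3 myotube arrays, blue points myoblast arrays 2 and 3, and the open diamond myoblast array 1. For ATF4, at 25073, and for RARS1, at 3790, the diamond lies among or above the myotube points, while for TRIB3, at 3058, it lies with the other myoblast arrays.

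Of the stress effectors, TRIB3 and STC2 rose in myotubes, and DDIT4 did not pass the test. TRIB3, a pseudokinase that binds ATF4 and dampens its activity, is one of the genes with a CARE match above. It had signals of 7202, 7801 and 8794 on the myotube arrays, and 3058, 2637 and 2968 on the myoblast arrays. All 3 myoblast arrays, array 1 included, lay together and well under the myotubes. TRIB3 rose by 1.40 ± 0.17, or 2.63-fold (limma adjusted p = 0.0012). It was the only member past the threshold in all 20 alternative settings, with 1.32 in the series block (limma adjusted p = 0.0207) and 1.32 in the first laboratory series alone (limma adjusted p = 0.0334).

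STC2, a secreted glycoprotein hormone induced by endoplasmic reticulum stress, had signals of 10293, 10796 and 8437 on the myotube arrays, and 4972, 2613 and 2360 on the myoblast arrays. The groups were apart, with myoblast array 1 between the myotubes and the other myoblasts. STC2 had the highest difference of the members, a rise of 1.58 ± 0.26 or 2.99-fold (limma adjusted p = 0.00473), and its other probe set also rose, by 0.97 ± 0.26 (limma adjusted p over probe sets = 0.0382). No single array decided the call (adjusted p up to 0.0386 when 1 was left out), but with the series block the difference was 0.95 and missed the threshold (limma adjusted p = 0.0664). DDIT4, an inhibitor of mTORC1 also called REDD1, had signals of 4321, 5065 and 5955 in myotubes and 3361, 3663 and 3674 in myoblasts. All myotube arrays were above all myoblast arrays, and the difference of 0.49 ± 0.18 missed the threshold (limma adjusted p = 0.103), which it passed with quantile normalization (0.62, limma adjusted p = 0.0485).

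Among the enzymes for serine, one-carbon units and asparagine, PHGDH, PSAT1 and SHMT2 rose in myotubes, and PSPH, MTHFD2 and ASNS did not pass the test. PHGDH, PSAT1 and PSPH carry out the successive steps by which serine is made from a glycolytic intermediate. PHGDH, the entry enzyme, had signals of 6248, 6893 and 6437 in myotubes and 4852, 3512 and 2930 in myoblasts. PSAT1, the aminotransferase that follows it, had 10924, 11922 and 14117 in myotubes and 7438, 6607 and 6272 in myoblasts. For both enzymes the groups were apart and myoblast array 1 was the highest of the myoblasts. PHGDH rose by 0.79 ± 0.21, or 1.73-fold (limma adjusted p = 0.0317), and PSAT1 by 0.84 ± 0.18, or 1.79-fold (limma adjusted p = 0.0138). PHGDH lost its call when any array other than myoblast array 1 was left out (adjusted p up to 0.169), and PSAT1 without myotube array 2 or without myoblast array 2 or 3 (up to 0.0809). With the series block PHGDH differed by 0.41 (limma adjusted p = 0.369) and PSAT1 by 0.71 (limma adjusted p = 0.124).

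The last enzyme of serine synthesis did not follow the others. PSPH had signals of 733, 1583 and 2523 on the myotube arrays, and 1392, 4011 and 4590 on the myoblast arrays. The groups overlapped through myoblast array 1, which lay below 2 of the myotube arrays, and the myotube arrays differed among themselves by over 3-fold. The difference was -0.94 ± 0.46 (95% interval -1.97 to 0.08, limma adjusted p = 0.186), its other probe set gave -0.87 ± 0.43, and with the series block the estimate was 0.06. PSPH was lower and past the threshold without myoblast array 1 (-1.44, limma adjusted p = 0.0281).

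SHMT2, the mitochondrial enzyme that splits serine into glycine and a one-carbon unit, had signals of 13764, 9888 and 11277 in myotubes and 8480, 5701 and 5101 in myoblasts. The groups did not overlap, and myoblast array 1 was the highest myoblast array. SHMT2 rose by 0.86 ± 0.22, or 1.81-fold (limma adjusted p = 0.0322), and lost the call when any array other than myoblast array 1 was left out (adjusted p up to 0.145), as it did under the series block (0.44, limma adjusted p = 0.381). Its probe sets disagreed: the other 2 gave 0.06 ± 0.26 and 0.71 ± 0.30, neither past the threshold. MTHFD2, the mitochondrial enzyme next in the folate cycle, differed by 0.09 ± 0.20 (95% interval -0.34 to 0.53, limma adjusted p = 0.754). ASNS, which makes asparagine and is the standard reporter of ATF4, had signals of 4707, 4820 and 10017 in myotubes and 4925, 4468 and 4315 in myoblasts. Only myotube array 3 stood above the rest (0.41 ± 0.27, limma adjusted p = 0.315).

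None of the 4 amino acid transporters passed the limma threshold (1 of 4, SLC7A5, had an unadjusted p below 0.05), and their median difference was -0.14. SLC7A5, the light chain of the large neutral amino acid exchanger, had signals of 5006, 4311 and 5390 in myotubes and 6061, 7474 and 7292 in myoblasts. Every myotube array was below every myoblast array, with a difference of -0.49 ± 0.18 (limma adjusted p = 0.0956), and -0.58 without myoblast array 1 (limma adjusted p = 0.0356). SLC3A2, the heavy chain that SLC7A5 needs at the cell surface, differed by 0.12 ± 0.18 (limma adjusted p = 0.655). SLC7A1, which carries arginine and lysine, differed by -0.40 ± 0.21 (limma adjusted p = 0.201), and SLC1A5, which carries glutamine, by 0.39 ± 0.19 (limma adjusted p = 0.178), with no overlap between groups for SLC1A5.

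The cytosolic synthetases, which join each amino acid to its tRNA, moved in both directions: WARS1 and SARS1 rose, KARS1 and RARS1 fell, and 12 of 16 did not pass the test. WARS1, for tryptophan, which is also induced by interferon, had signals of 6924, 8809 and 8166 on the myotube arrays, and 5029, 2897 and 3180 on the myoblast arrays. SARS1, for serine, had 17945, 19996 and 19363 on the myotube arrays, and 14987, 10164 and 10264 on the myoblast arrays. In both genes the groups were apart, and myoblast array 1 stood between the myotubes and the other myoblasts. WARS1 rose by 1.10 ± 0.22, or 2.14-fold (limma adjusted p = 0.0119), with 0.85 ± 0.21 for its other probe set (limma adjusted p over probe sets = 0.0264), and SARS1 rose by 0.71 ± 0.20, or 1.63-fold (limma adjusted p = 0.0461). When 1 array was left out, WARS1 lost its call only without myotube array 2 (0.0691), and SARS1 without any array other than myoblast array 1 (up to 0.209). SARS1 was past the threshold in 8 of the 20 settings and missed it with no filter (0.0597) and with 75th percentile scaling (0.0684).

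KARS1, the lysyl-tRNA synthetase, had signals of 6368, 7570 and 9284 on the myotube arrays, and 12256, 17214 and 17052 on the myoblast arrays. RARS1, the arginyl-tRNA synthetase, had 2477, 2946 and 3871 on the myotube arrays, and 3790, 8675 and 8369 on the myoblast arrays. KARS1 was lower on every myotube array, whereas for RARS1 the groups overlapped, since myoblast array 1 lay just under myotube array 3. KARS1 fell by 0.98 ± 0.21 on the log2 scale, 1.98-fold lower (limma adjusted p = 0.0149), and by 0.91 ± 0.17 in its other probe set (limma adjusted p over probe sets = 0.00891). Its call was lost without myotube array 1 or 2 or myoblast array 2 or 3 (up to 0.0735). RARS1 fell by 1.05 ± 0.30, 2.07-fold lower (limma adjusted p = 0.0479), and was past the threshold in only 6 of the 20 alternative settings. It missed it without any array other than myoblast array 1 (up to 0.172), and also with small changes of processing: quantile normalization (0.0568), a lower pseudocount (0.0505), no filter (0.0548) and robust eBayes (0.0522). Both proteins belong to the multi-synthetase complex, which was not tested as a whole. EPRS1, IARS1 and LARS1, also of that complex, differed by 0.24, 0.03 and 0.04 and did not pass the test. AIMP1, a scaffold of that complex, did not pass the test (-0.43 ± 0.36, limma adjusted p = 0.422).

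With the laboratory series as a block no synthetase passed the limma threshold (3 of 16 had an unadjusted p below 0.05). The estimates were then 0.64 for WARS1, 0.34 for SARS1, -0.67 for KARS1 and -0.30 for RARS1.

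The other 12 synthetases had differences from -0.38 (HARS1, for histidine) to 0.29 (GARS1, for glycine). For GARS1, EPRS1 (glutamate and proline) and YARS1 (tyrosine) all myotube arrays were above all myoblast arrays, with differences of 0.29 ± 0.19, 0.24 ± 0.16 and 0.21 ± 0.17. The probe sets of EPRS1 disagreed: in its dimmer ones the groups overlapped, with differences of 0.068 ± 0.185 and -0.221 ± 0.264. TARS1, for threonine, had 5596, 6261 and 6513 in myotubes and 7722, 7839 and 8156 in myoblasts, also with no overlap and in the other direction, -0.36 ± 0.16 (limma adjusted p = 0.157). AARS1 (alanine), CARS1 (cysteine), IARS1 (isoleucine) and LARS1 (leucine) differed by 0.13, 0.03, 0.03 and 0.04, and the 95% interval was -0.37 to 0.42 for IARS1. NARS1 (asparagine) and VARS1 (valine) differed by -0.17 and -0.24. FARSA, a subunit of the phenylalanyl enzyme, had 2084, 1810 and 3193 in myotubes and 4021, 1792 and 1576 in myoblasts, the widest spread among these 12 (95% interval -0.73 to 0.77). Its other probe set spread less and gave 0.169 ± 0.198. Those of CARS1 and VARS1 gave 0.449 ± 0.330 and -0.464 ± 0.385, with overlapping groups. Of the 7 genes with a CARE match in the mouse promoter, TRIB3 passed the test, and the others had differences from -0.36 (TARS1) to 0.41 (ASNS).

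Myoblast array 1 held an intermediate or myotube-like level for some members, as it did for many of all tested genes. It lay nearer to the mean of the myotube arrays than to that of myoblast arrays 2 and 3 for 15 of the 34 members, against 54.7% of all tested genes, and for 6 of the 11 called members, against 15% of all called genes. These 6 were DDIT3, PHGDH, SHMT2, SARS1, WARS1 and RARS1. For ATF4, myoblast array 1 exceeded the mean of myoblast arrays 2 and 3 by 1.20 on the log2 scale and the myotube mean exceeded it by 1.05. For TRIB3 the same 2 distances were 0.12 and 1.44, and for ATF5 0.34 and 1.60. Myoblast array 1 also shared its laboratory series with the myotube arrays and had a spike-in signal within their range (48119). It had the highest fibroblast marker sum of the myoblasts (190981, of which COL1A1 gave 99117), below every myotube array. Among the myoblasts COL1A1, COL3A1, FBN1, POSTN, S100A4, MFAP5 and THY1 were highest on array 1, DCN lay between, and PDGFRA and LUM were lowest. The part of series, spike-in signal and fibroblast markers in the member levels was not tested.

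**Figure D3:**
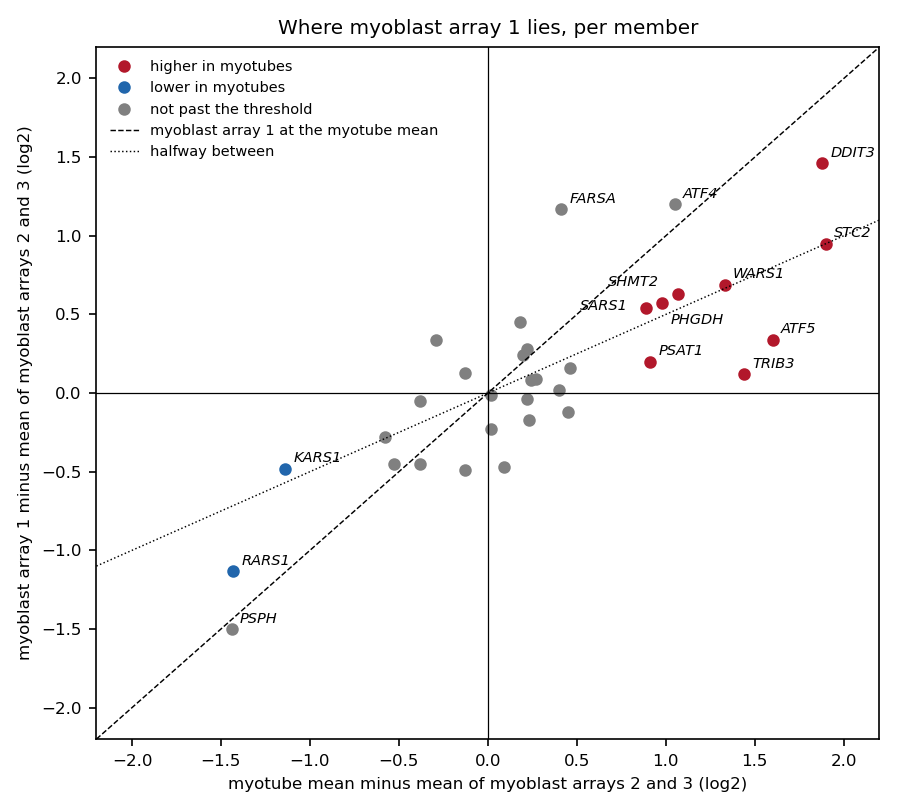
For each tested member, the myotube mean (x axis) and myoblast array 1 (y axis), both as log2 differences from the mean of myoblast arrays 2 and 3; the dashed line marks equality with the myotube mean and the dotted line the point halfway. ATF4 (1.05, 1.20) lies above the dashed line, while TRIB3 (1.44, 0.12) and ATF5 (1.60, 0.34) lie close to the level of the other myoblast arrays.

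The rest of the pathway was read from wider lists. Across all tested genes 5.81% were higher and 7.02% lower, with a median of 0.12. Of 25 tested further ATF4 targets 5 rose and none fell, with a median of 0.19. Their differences ran from -1.55 to 2.95, and at an unadjusted limma p below 0.05, 9 were higher and 2 lower. NUPR1, a stress-induced chromatin protein, had signals of 12028, 13816 and 13920 on the myotube arrays, and 4100, 918 and 902 on the myoblast arrays. GDF15, a secreted stress cytokine, had 7812, 9340 and 9812 on the myotube arrays, and 2299, 1734 and 2088 on the myoblast arrays. Both genes were far higher on every myotube array, and myoblast array 1 again stood above the other 2 myoblasts for NUPR1. NUPR1 rose by 2.95 ± 0.44, or 7.71-fold (limma adjusted p = 0.00297), and GDF15 by 2.04 ± 0.19, or 4.11-fold (limma adjusted p = 0.000255), and both kept their calls with the series block (1.64 and 1.87, adjusted p = 0.00695 and 0.00627). The other 3 were VEGFA, an angiogenic growth factor (1.28 ± 0.21, limma adjusted p = 0.00452), SQSTM1, an autophagy receptor (1.20 ± 0.18, limma adjusted p = 0.00323), and PYCR1, a proline synthesis enzyme (0.90 ± 0.21, limma adjusted p = 0.0206). With the series block SQSTM1 kept its call (1.24, limma adjusted p = 0.0241), while VEGFA (0.92, limma adjusted p = 0.074) and PYCR1 (0.64, limma adjusted p = 0.249) did not, and PYCR1 also lost it without myotube array 1 or 2 or myoblast array 2 or 3 (up to 0.0959). SQSTM1 and PYCR1 were named after their values were seen.

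ATF6 and XBP1 run the arms of the unfolded protein response that raise chaperones of the endoplasmic reticulum. Of 18 tested endoplasmic reticulum chaperones and ATF6/XBP1 targets 4 fell and none rose, with a median of -0.30. The 4 were 22.2% of the list, and 7.02% of all tested genes were lower. HSP90B1, the HSP90 of the endoplasmic reticulum, had signals of 872, 1736 and 2656 in myotubes and 3484, 5400 and 4736 in myoblasts. PDIA6, a disulfide isomerase, had 9209, 7126 and 9663 in myotubes and 14428, 22906 and 22250 in myoblasts. In both genes all myotube arrays were below all myoblast arrays. They fell by 1.37 ± 0.33 and 1.16 ± 0.23 (limma adjusted p = 0.0238 and 0.0099). HSP90B1 lost its call without myotube array 1 or 2 or myoblast array 2 or 3 (limma adjusted p up to 0.0898). PDIA6 lost its call only without myotube array 2 (limma adjusted p = 0.0641). SDF2L1, a cofactor of the chaperone BiP with 1 value at or below the controls, fell by 1.09 ± 0.24 (limma adjusted p = 0.0163). PDIA4, named after its value was seen, fell by 0.67 ± 0.19 (limma adjusted p = 0.0419). SDF2L1 lost its call without any of the same arrays as HSP90B1 (limma adjusted p up to 0.0832). PDIA4 lost its call without any array other than myoblast array 1 (limma adjusted p up to 0.127). In the series block none of the 18 passed the limma threshold (6 had an unadjusted p below 0.05, all lower), with -1.03 for HSP90B1 and -0.73 for PDIA6.

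Upstream of ATF4, 1 of 14 tested genes for eIF2, its kinases, exchange factor and phosphatase regulators passed the test. That was 7.1% of the list, near the 7.02% of all tested genes that were lower. EIF2S1, the phosphorylated subunit of eIF2, had 4047, 3523 and 5949 in myotubes and 10627, 7089 and 6916 in myoblasts and fell by 0.84 ± 0.24 (limma adjusted p = 0.0445), a call lost without any array but myotube array 3 (up to 0.172). Among 17 translation factors 3 fell and none rose (17.6%, against 7.02% of all tested genes that were lower). Their differences ran from -1.58 to 1.42, and at an unadjusted limma p below 0.05, 5 were lower and 1 higher. With quantile normalization 3 were called lower and 1 higher. EIF4E, the cap-binding protein, differed by -1.58 ± 0.21 (limma adjusted p = 0.00174). EIF1AX, which helps scan for the start codon, differed by -1.27 ± 0.25 (limma adjusted p = 0.0104). EIF3D, a subunit of the initiation factor eIF3, differed by -0.68 ± 0.18 (limma adjusted p = 0.0354). Of these 4 genes EIF4E kept its call with the series block (-1.35, limma adjusted p = 0.0353), and EIF1AX (-0.71, limma adjusted p = 0.161), EIF3D (-0.60, limma adjusted p = 0.21) and EIF2S1 (-1.24, limma adjusted p = 0.0616) did not. EIF1AX also lost it without myotube array 2 (0.0616), and EIF3D without myotube array 1 or 2 or myoblast array 2 or 3 (up to 0.151).

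One-carbon enzymes outside the members, which supply nucleotide synthesis, included 2 of 4 that fell, against 7.02% of all tested genes. TYMS, thymidylate synthase, had signals of 2150, 2846 and 2339 in myotubes and 9821, 8867 and 9666 in myoblasts. MTHFD1, the cytosolic folate enzyme, had 2879, 1927 and 2455 in myotubes and 5049, 4890 and 4981 in myoblasts. For both the 3 myoblast arrays, array 1 included, were close together and well above the myotubes. TYMS fell by 1.88 ± 0.18 (limma adjusted p = 0.000291), with -1.93 in the series block (limma adjusted p = 0.00549). MTHFD1 fell by 1.00 ± 0.19 (limma adjusted p = 0.00992), with -1.02 in the series block (limma adjusted p = 0.0818). Of the mitochondrial members, SHMT2 was higher, but its probe sets disagreed and the series block lost its call. MTHFD2 did not pass the test (0.09 ± 0.20, limma adjusted p = 0.754). None of 9 tested mitochondrial synthetases passed the limma threshold (4 had an unadjusted p below 0.05), with CARS2 at 0.68 ± 0.21 (adjusted p = 0.0598) and IARS2 at -0.75 ± 0.25 (adjusted p = 0.0792). AIMP1, the one tested scaffold of the synthetase complex, differed by -0.43 ± 0.36 (limma adjusted p = 0.422).

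**Figure D4:**
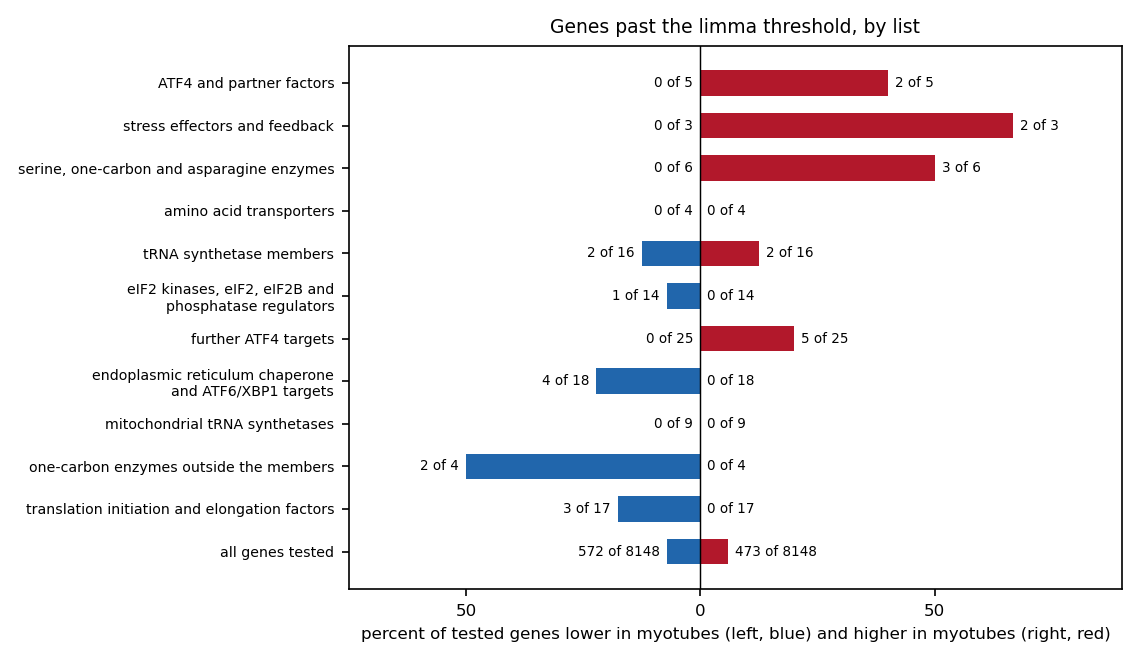
Percent of the tested genes of each list that were higher (right, red) or lower (left, blue) in myotubes at a limma adjusted p below 0.05, with the counts beside the bars. The stress and amino acid roles and the further ATF4 targets (5 of 25) have calls only to the right, the endoplasmic reticulum list (4 of 18) and the translation factors (3 of 17) only to the left, and the synthetases 2 on each side.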

How the data were processed

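The authors deposited 1 intensity per probe set and array, for which the submitters' processing notes name MAS5 (version not given in the sources used here), and the array run records. Values between the 2 percent tails averaged 1499.7 to 1499.8 on each array. Groups came from the titles, for myoblast array 3 from its description. That description gives a range of numbers, and whether myoblast arrays 2 and 3 are separate replicates could not be told. The numbers in 3 run records, all myoblast, differ from the titles. Of 22283 probe sets, 68 controls, 1043 with several symbols, 2107 with none and 47 sex-linked ones were left out (platform annotation of 2016). With depth having no counterpart here, the highest unspiked control (251.5 to 1040.2) marks background; with 3 arrays per group, precision is limited by their number.

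Values were analysed as log2(signal + 197), 197 being the 25th percentile of the table. Probe sets with a mean under 475, the 40th percentile, were left out. Limma 3.58.1 (R 4.3.3, statmod 1.5.0; lmFit, eBayes with trend, two-sided) was fitted on 11745 probe sets, with Benjamini-Hochberg adjustment over 8148 genes and a threshold of 0.05. The fit was tested on simulated data with independent spread on each array. That simulation held no laboratory series, chip lot or nearly alike arrays, so it cannot show how these affect the calls. A fold understates the change of dim genes. Other genes named were up to 3 called members of each list per direction or, where none was called, the 2 with the smallest p. The members and lists were chosen with earlier results of these data known. One promoter result is not reported here. In all, 20 alternative settings were run. Figures were drawn with matplotlib 3.10.9.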

Additional observations from a re-analysis of the deposited data

How the results depend on the processing

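Of the stress and amino acid members 7 were called. The count was 3 with eBayes without trend (ATF5, STC2 and TRIB3), 2 with the laboratory series as a block, 3 with chip lot as a random block, 1 in the first laboratory series alone and 3 with myoblast arrays 2 and 3 averaged, and it ran from 3 to 10 when 1 array was left out. The 10, without myoblast array 1, were 8 higher and 2 lower and added ATF4, PSPH and SLC7A5. Calls over all genes moved too: they numbered 704, 245, 315, 122 and 421 in these 5 settings, in the order given, and 404 to 2288 when 1 array was left out (2288 without myoblast array 1), against 1045 in the main comparison. Of the synthetases 4 were called: 2 without a filter, 1 without trend, 0 with the series block, 0 with the lot block, 0 in the first series alone, 1 with the averaged arrays, and from 0 (without myotube array 2) to 4 when 1 array was left out. Beside these 4 limma counts of 0, the members with an unadjusted p below 0.05 numbered 3, 4, 2 and 4 of 16, beside 1468, 1604, 928 and 1917 of all 8148 genes. Under the pseudocounts, the 60th percentile filter, quantile and 75th percentile scaling, robust eBayes and averaged probe sets per gene, both counts stayed within 1.5 times. By gene, TRIB3 was called in 20 of the 20 settings, ATF5 in 19, STC2 in 18, WARS1 in 16, PSAT1 in 12, KARS1 in 11, DDIT3 and PHGDH in 10 each, SHMT2 in 9, SARS1 in 8 and RARS1 in 6. No called member changed sign in any of the 20 settings. The cause of the lost calls was not tested.

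With the replicate number of the titles as a block, 8 stress and amino acid members were called (7 higher, and PSPH lower) and 4 synthetases, against 1550 of all genes. The labels give no shared source for same-numbered arrays. Deviations of same-numbered arrays correlated at 0.242, -0.187 and 0.375. These values cannot decide whether arrays were paired, because myoblast arrays 2 and 3 were nearly alike (r = 0.988).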
